A study of Mus musculus with 23 samples.

Results

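Slc11a1 and Slc11a2 are the 2 genes of the natural resistance associated macrophage protein (NRAMP) family, and their counts were followed through 4 groups of mouse hippocampal CD11b+ cells. They were taken by gene symbol from the deposited count table, in which each has 1 row, and make up 2 of 18876 genes. Slc11a1 (ENSMUSG00000026177) codes for NRAMP1, and Slc11a2 (ENSMUSG00000023030) codes for divalent metal transporter 1 (DMT1). Slc11a2 is also the gene targeted in the mice.

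NRAMP proteins carry divalent metals such as ferrous iron and manganese across membranes together with protons. NRAMP1 sits in the phagosome and lysosome membrane of macrophages and neutrophils, where it withdraws metal from engulfed material and limits the growth of intracellular microbes. DMT1 is found in many cell types, moves iron from endosomes into the cytosol after transferrin uptake, and takes up non-transferrin iron at the cell surface. Slc11a2 makes transcripts with and without an iron responsive element, and counts per gene pool them.

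All mice were female, 15 to 18 months old, of a mixed 129S;C57BL/6J background, and all carried Slc11a2 fl/fl and Cx3cr1-CreERT2, the Controls included. APP/PS1 mice also carry mutant human amyloid precursor protein and presenilin 1 transgenes and form amyloid plaques, and WT mice lack these transgenes. Mice named Slc11a2 KD received tamoxifen by oral gavage, 4 mg a day for 5 days at 5 to 6 months of age, and Controls received corn oil, so that knockdown and tamoxifen cannot be told apart. Of the 23 libraries, 13 are Controls (7 APP/PS1 and 6 WT) and 10 are labelled KD (5 of each genotype). Of these, 22 were compared, without Control APP/PS1 0010. The study left out a Control APP/PS1 library without naming it in its text, and 0010 was taken to be that library because its heat map lacks it. Cre driven from Cx3cr1 acts in microglia and in other cells that use this gene, such as border macrophages, and cells were enriched by magnetic CD11b beads rather than by a microglia specific gate.

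Library totals ran from 31128643 to 54872491 counts. Of 8 microglial markers listed, 7 were in the table, and their summed level ran from 22979 to 38162 CPM per library (counts relative to the library total, scaled by TMM), against at most 3.39 CPM for 4 neuronal markers. The 4 oligodendrocyte markers summed to between 285 and 3321 CPM and the 4 endothelial markers to between 79.2 and 268 CPM. All Control libraries have numbers from 5 to 17, whereas KD libraries have numbers 1 to 4 and 18 to 23, so KD and Control could not be compared within a run of numbers. Fits with numbers 18 to 23 as a covariate set KD against Control mainly through KD libraries 1 to 4. They also assume the same shift in both genotypes. Epithelial markers of the choroid plexus (8 genes) were summed to between 87.1 and 1934 CPM in Control WT 0012 and 0015 and in all of the libraries 18 to 23, and to at most 51.1 CPM in the other 14. In bulk RNA, fewer cells of a type and less RNA per cell cannot be told apart.

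Both genes have the same build in the stretch that was floxed. Slc11a1 lies at chr1:74414303-74425448 on the plus strand of GRCm39 and has 15 exons in its canonical transcript of 2601 bases (GENCODE M39). Slc11a2 lies at chr15:100285776-100322953 on the minus strand and has 17 exons in a canonical transcript of 3025 bases. In these mice the stretch of Slc11a2 from exon 6 to exon 8 was targeted, and with exons numbered on the canonical transcript, which is assumed here, these are chr15:100304161-100304267, chr15:100303625-100303695 and chr15:100303457-100303524. They measure 107, 71 and 68 bases, all coding, and exons 5 to 7 of Slc11a1 (chr1:74418942-74419048, chr1:74419356-74419426 and chr1:74419768-74419835) have exactly these lengths. The spliced exons are shown because they are the piece that knockdown removes, set against the piece that Slc11a1 keeps. Capitals mark the bases that differ between the 2 genes.
Slc11a1 exons 5 to 7: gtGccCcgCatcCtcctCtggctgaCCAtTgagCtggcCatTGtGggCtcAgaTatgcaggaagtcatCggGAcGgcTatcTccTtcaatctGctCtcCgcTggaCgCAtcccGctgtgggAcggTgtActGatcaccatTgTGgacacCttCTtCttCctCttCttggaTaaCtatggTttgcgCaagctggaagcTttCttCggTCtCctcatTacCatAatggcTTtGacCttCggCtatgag
Slc11a2 exons 6 to 8: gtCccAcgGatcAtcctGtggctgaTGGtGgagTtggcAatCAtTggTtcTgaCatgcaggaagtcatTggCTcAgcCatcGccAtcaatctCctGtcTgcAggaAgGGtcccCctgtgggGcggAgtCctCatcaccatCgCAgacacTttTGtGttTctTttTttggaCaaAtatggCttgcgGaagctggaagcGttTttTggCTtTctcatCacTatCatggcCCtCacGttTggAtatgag
The sequences were read from GRCm39. They match at 181 of 246 bases (73.6%), the longest identical run is 14 bases, and 26 of 82 codons are the same. Each stretch begins and ends on a codon boundary and spans codons 129 to 210 of Slc11a1 and 144 to 225 of Slc11a2, so that its loss leaves the reading frame of the rest intact. The glycine substitutions known from anaemic microcytic mice (in Slc11a2) and from mouse strains susceptible to intracellular bacteria, C57BL/6 among them (in Slc11a1), both fall in this part of the proteins. The counts per gene do not separate alleles.

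Slc11a2, the targeted gene, was examined first. In Control WT it ran from 29.9 CPM to 43.7 CPM with a median of 33.5 CPM (35.1 ± 5.13, SD, n = 6). In Slc11a2 KD WT it was 37.5, 31.6, 27.1, 36.9 and 38.1 CPM in libraries 0001, 0002, 0003, 0019 and 0022 (34.2 ± 4.75, SD, n = 5). The ranges overlapped, although 0003 lay below every Control WT library and the highest Control WT libraries lay above every KD one, and 3 of the KD libraries lay above the Control WT median. Labelled KD WT against Control WT, the log2 fold change was -0.04 (95% interval -0.33 to 0.26, adjusted p = 1, edgeR), a change between -20.6% and 19.8%. With library numbers 18 to 23 as a covariate it was -0.20 (adjusted p = 0.555, edgeR). The floxed exons make up 8.13% of the canonical transcript, which lies inside the 95% interval, so the gene total neither checks the KD labels nor shows that they are wrong. The study examined the floxed exons themselves, by RT-qPCR and in these reads, and reports that their expression was lost in knockdown microglia. That measurement cannot be made from counts per gene and was not analysed here. The libraries are therefore named as labelled, and every direction between KD and Control follows the labels.

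In APP/PS1 mice, the libraries labelled Slc11a2 KD did not have less Slc11a2 than Controls. Control APP/PS1 ran from 40.0 CPM to 48.2 CPM with a median of 41.5 CPM (43.2 ± 3.93, SD, n = 6). Slc11a2 KD APP/PS1 was 37.8, 52.1, 59.2, 75.1 and 58.2 CPM in libraries 0004, 0018, 0020, 0021 and 0023 (56.5 ± 13.5, SD, n = 5). Of the 5 libraries, 4 lay above every Control APP/PS1 library, and 0004 lay below every one. The log2 fold change was 0.39 (SE 0.14, 95% interval 0.09 to 0.68), a change between 6.44% and 60.3%, with an adjusted p of 0.205 in edgeR, which called 0% of 18759 genes in this comparison. Without 0004 the log2 fold change was 0.50 with an adjusted p of 0.0209, and edgeR then called 3069 genes, or 16.4%. Without 0021, the highest library, the log2 fold change was 0.25 with an adjusted p of 0.527 (edgeR). DESeq2 with 0004 kept gave 0.44 with an adjusted p of 0.0498 and called 580 genes. The 4 libraries above the Controls all have numbers from 18 to 23, and with those numbers as a covariate the log2 fold change was 0.04. No Control has such a number, so that value leans on 0004, the lowest library, and on KD WT 0001, 0002 and 0003. It cannot tell a knockdown difference from one between runs of numbers.

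**Figure D1:**
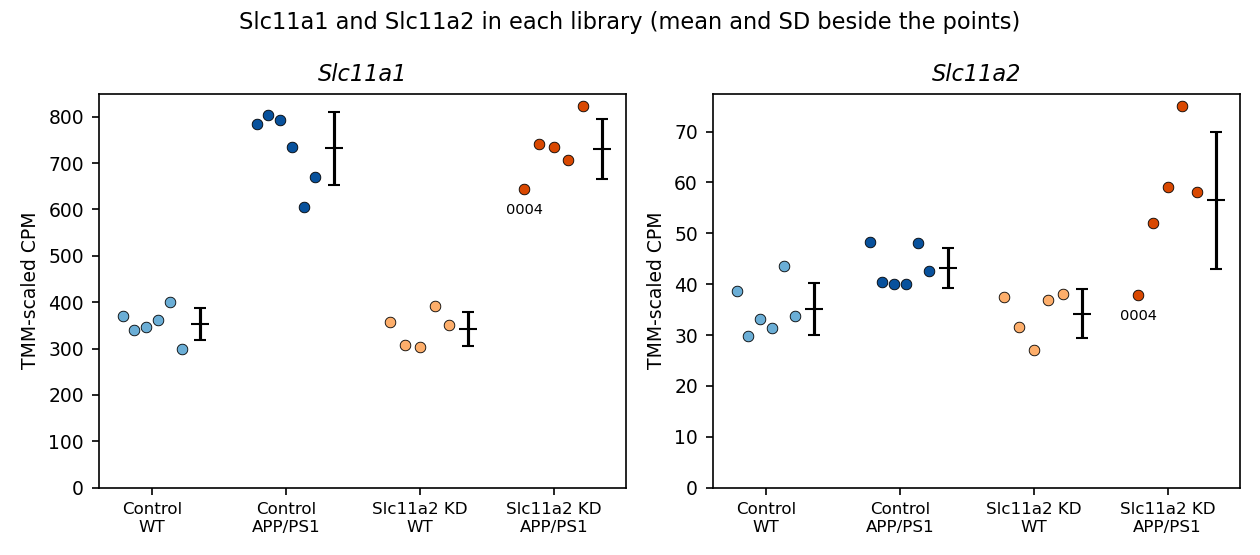
Level of Slc11a1 (left) and Slc11a2 (right) as TMM-scaled CPM on the vertical axis, starting at 0, with 1 point for each of 22 libraries in order of library number and the group mean and SD beside the points. Slc11a1 is split by APP/PS1 with no overlap, between 299 and 400 CPM in WT and between 606 and 824 CPM in APP/PS1, whereas Slc11a2 overlaps between the groups and is most spread in Slc11a2 KD APP/PS1, where 0004 lies lowest.

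Between APP/PS1 and WT mice, Slc11a2 was higher in the libraries labelled KD, and its Control difference did not pass the test. In the KD comparison, edgeR called 16.2% of 18759 genes. Of all genes tested, 9.77% were called higher, and Slc11a2 was among these. The log2 fold change was 0.72 (SE 0.15, 95% interval 0.41 to 1.03, adjusted p = 0.00209, edgeR), which is 1.65-fold. The ranges overlapped in 1 library only, 0004 at 37.8 CPM, which lay just under the highest KD WT library at 38.1 CPM. Among libraries 18 to 23, the 4 KD APP/PS1 libraries were 52.1 CPM or higher and the 2 KD WT libraries were 36.9 and 38.1 CPM. In these 6 libraries alone the log2 fold change was 0.70, with an adjusted p of 0.143 in edgeR. With the numbers as a covariate over all 22 libraries it was 0.54 (adjusted p = 0.0173, edgeR). A required log2 fold change above 1 in size, which the study's methods name, would remove the call and leave 5.89% of genes called.

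In Controls, edgeR called 10.5% of 18759 genes between APP/PS1 and WT, and Slc11a2 was not among them. The log2 fold change was 0.30 (SE 0.14, 95% interval 0.02 to 0.58, adjusted p = 0.175, edgeR). Of the 6 Control APP/PS1 libraries, all were above 5 of the 6 Control WT libraries, and Control WT 0014, at 43.7 CPM, lay above 4 of them. With only these 2 groups in the fit, the log2 fold change was 0.32 and the adjusted p was 0.0426. The difference between the KD and the Control effect of APP/PS1, tested as an interaction, was 0.42 (95% interval 0.00 to 0.84, adjusted p = 0.544, edgeR). It did not pass the threshold and was 0.24 with numbers 18 to 23 as a covariate (adjusted p = 1, edgeR). No gene passed in edgeR (1703 at an unadjusted p under 0.05). DESeq2 called 25 genes for the interaction and limma voom 1.

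Slc11a1 was higher in APP/PS1 than in WT mice, both in Control libraries and in libraries labelled KD. In Control WT it ran from 299 CPM to 400 CPM with a median of 354 CPM (353 ± 33.6, SD, n = 6). In Control APP/PS1 it ran from 606 CPM to 804 CPM with a median of 759 CPM (732 ± 79.3, SD, n = 6). Every Control APP/PS1 library lay well above the highest Control WT library. The log2 fold change was 1.05 (SE 0.10, 95% interval 0.85 to 1.25, adjusted p = 6.58e-08, edgeR), which is 2.07-fold. By p-value it ranked 44 of 18759 genes, and 5.99% of genes were called higher. It passed the log2 limit of 1 as well, as did 4.89% of genes. Over these groups, 5.33% of genes lay higher without overlap.

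In the libraries labelled KD the values repeated this split. Slc11a2 KD WT was 357, 307, 303, 391 and 351 CPM in 0001, 0002, 0003, 0019 and 0022 (342 ± 37.2, SD, n = 5). Slc11a2 KD APP/PS1 was 643, 741, 736, 707 and 824 CPM in 0004, 0018, 0020, 0021 and 0023 (730 ± 65.3, SD, n = 5). No KD APP/PS1 library came near the KD WT range, 0004 included. The log2 fold change was 1.09 (SE 0.11, 95% interval 0.87 to 1.32, adjusted p = 2.79e-07, edgeR), or 2.14-fold, and 4.18% of genes were higher without overlap. It ranked 29 by p-value. Among libraries 18 to 23 alone the log2 fold change was 1.01 (adjusted p = 0.0134, edgeR).

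No difference of Slc11a1 between libraries labelled KD and Control passed the test. Labelled KD WT against Control WT, the log2 fold change was -0.05 (95% interval -0.26 to 0.16, adjusted p = 1, edgeR), a change between -16.3% and 12.1%. In this comparison edgeR called 0% of genes (1110 at an unadjusted p under 0.05), DESeq2 10 and limma voom 1. Labelled KD APP/PS1 against Control APP/PS1, it was -0.004 (95% interval -0.21 to 0.21, adjusted p = 0.994, edgeR), a change between -13.8% and 15.4%. These differences were -0.13 and -0.18 with numbers 18 to 23 as a covariate (adjusted p = 0.602 and 1, edgeR). In the APP/PS1 comparison, 3862 genes had an unadjusted p under 0.05, and limma voom called 2. Tested as an interaction, the APP/PS1 effects under KD and Control differed by 0.04 (95% interval -0.25 to 0.34, adjusted p = 0.939, edgeR).

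**Figure D2:**
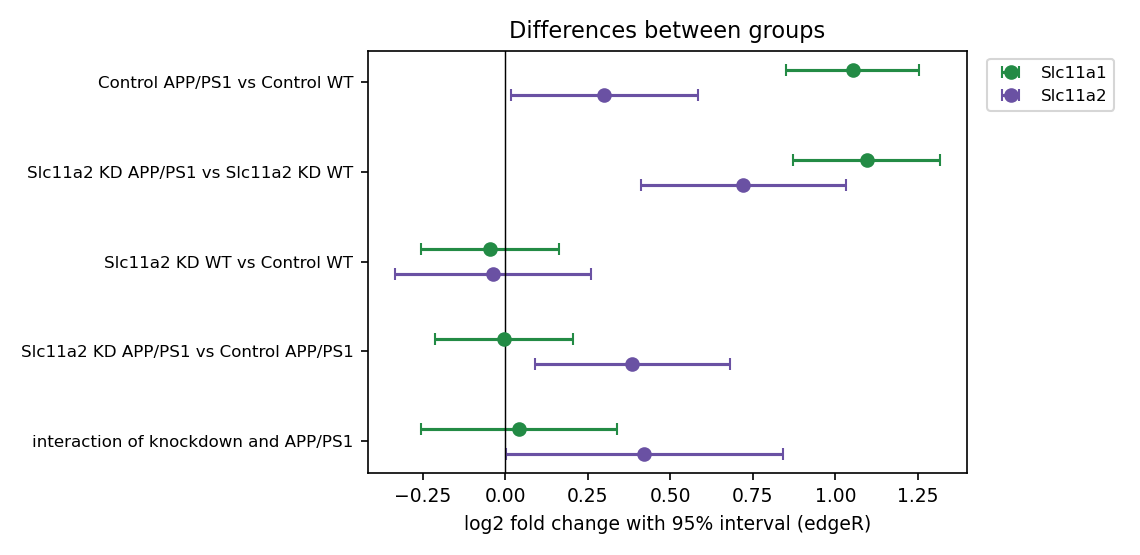
Log2 fold change (horizontal axis) with its 95% interval from edgeR for each comparison (vertical axis), Slc11a1 in green and Slc11a2 in purple. For Slc11a1 the APP/PS1 effects of 1.05 and 1.09 stand clear of 0 and the knockdown effects straddle it, whereas for Slc11a2 the effects run from -0.04 to 0.72.

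In descending order, Slc11a1 was highest in Control APP/PS1 and KD APP/PS1 (732 and 730 CPM) and lowest in Control WT and KD WT (353 and 342 CPM), and the neighbours within each pair differed by less than 1 SD. For Slc11a2 the order was KD APP/PS1, Control APP/PS1, Control WT and KD WT, and only the step from Control APP/PS1 to Control WT was larger than the SD of both groups it joins. Inside groups, the SD was between 8.94% and 10.9% of the mean CPM for Slc11a1. For Slc11a2 it was between 9.09% in Control APP/PS1 and 23.8% in KD APP/PS1. The biological coefficient of variation from edgeR, pooled over the groups and moderated across genes, was 14.3% for Slc11a1 and 18.3% for Slc11a2. Counting error was at most 0.99% and 3.21% per library.

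Markers of other cells also differed in level between APP/PS1 and WT, most of them in the direction opposite to Slc11a1. The 4 astrocyte markers summed to between 5.94 and 22.9 CPM in Control WT and between 37.4 and 104 CPM in Control APP/PS1, and to between 9.97 and 23.5 CPM in KD WT and between 42.3 and 130.3 CPM in KD APP/PS1. This sum was higher in APP/PS1 without overlap, and 1 gene, the astrocyte filament gene Gfap, carried it, with a mean of 3.68 CPM in Control WT and 55.1 CPM in Control APP/PS1. Of the other 3, Aldoc was lower and Slc1a2 and Aqp4 were slightly higher in mean, with Aldoc at means of 9.75 and 6.65 CPM, Slc1a2 at 3.14 and 4.05 CPM and Aqp4 at 0.25 and 0.43 CPM. The summed neutrophil markers, 8 genes of another cell type that uses Slc11a1, had a median of 152 CPM in Control WT and 57.8 CPM in Control APP/PS1, the opposite direction to Slc11a1. They ran from 91.2 to 342 CPM in Control WT and from 21.2 to 102 CPM in Control APP/PS1. Of the 6 border macrophage markers, the sum ran from 196 to 397 CPM in Control WT and from 73.9 to 179 CPM in Control APP/PS1. The sum of the 4 endothelial markers ran from 132 to 264 CPM in Control WT and from 81.4 to 116 CPM in Control APP/PS1. Of these genes, Cldn5, Pecam1 and Vwf had lower means in APP/PS1, and Flt1 went the other way. Flt1 had means of 17.6 and 41.3 CPM in Control WT and Control APP/PS1, and 16.2 and 25.5 CPM in KD WT and KD APP/PS1. The summed monocyte and oligodendrocyte markers had lower medians in APP/PS1 too. The summed microglial markers were also lower, with a median of 32840 CPM in Control WT and 24005 CPM in Control APP/PS1. In KD WT and KD APP/PS1 the neutrophil medians were 119 and 72.3 CPM and the border macrophage medians 318 and 151 CPM. Choroid plexus markers were between 87.1 and 484 CPM in the 4 KD APP/PS1 libraries with high Slc11a2, and 2.30 CPM in 0004. They were also high, at 438 and 778 CPM, in KD WT 0022 and 0019, where Slc11a2 was 38.1 and 36.9 CPM, and at 1934 and 999 CPM in Control WT 0012 and 0015, where it was 31.4 and 33.8 CPM. Without Control WT 0012 and 0015 the Control APP/PS1 effect on Slc11a1 was 1.01 (adjusted p = 3.74e-06, edgeR). The part of astrocytes in the Slc11a1 result was not tested, nor was that of border macrophages and choroid plexus in the Slc11a2 result.

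Per length, NRAMP1 RNA was far more abundant than DMT1 RNA. Divided by the length of the canonical transcript, Slc11a1 was at 136 ± 12.9 RPKM in Control WT and 281 ± 30.5 RPKM in Control APP/PS1 (SD, n = 6 each), above 97.6% and 98.6% of the 18615 genes with a length. Slc11a2 was at 11.6 ± 1.70 and 14.3 ± 1.30 RPKM (SD, n = 6 each), above 78.2% and 80.4% of them. In KD WT and KD APP/PS1, Slc11a1 was at 131 and 281 RPKM and Slc11a2 at 11.3 and 18.7 RPKM. Over the union of all annotated exons, which is 3983 bases for Slc11a1 and 11071 bases for Slc11a2, the Control WT levels would be 88.6 and 3.17 RPKM, so the size of the gap depends on the gene model.

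The ratio of both genes inside a library does not depend on how libraries are scaled. Control WT held between 8.86 and 11.5 Slc11a1 counts per Slc11a2 count, and Control APP/PS1 between 12.6 and 19.9, with no overlap. In KD WT the ratio was 9.54, 9.70, 11.2, 10.6 and 9.23 in 0001, 0002, 0003, 0019 and 0022. In KD APP/PS1 it was 17.02, 14.2, 12.4, 9.41 and 14.2 in 0004, 0018, 0020, 0021 and 0023. KD APP/PS1 thus spanned from the KD WT range, in 0021, to the Control APP/PS1 range, in 0004 and others.

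Control APP/PS1 exceeded Control WT by 0.74 in mean log2 ratio (1.67-fold, exact permutation test, two-sided, p = 0.00216, the smallest these groups allow, adjusted p = 0.00866 over 4 comparisons). The difference was 0.40 between KD APP/PS1 and KD WT (exact permutation p = 0.0476, adjusted p = 0.0924), with 5 libraries in each group. With 1 library left out at a time it ran from 0.31 to 0.52 (exact permutation, adjusted p from 0.0317 to 0.127). It stayed above the threshold of 0.05 in 9 of 10 such fits and passed only without KD APP/PS1 0021. KD APP/PS1 lay 0.36 below Control APP/PS1, a log2 ratio difference of -0.36 (exact permutation p = 0.0693, adjusted p = 0.0924). With 1 library left out at a time this difference ran from -0.45 to -0.23 (exact permutation, adjusted p from 0.0476 to 0.203). It did not pass in 10 of 11 such fits and passed only without Control APP/PS1 0016, at -0.44. KD WT and Control WT differed by -0.01 (exact permutation p = 0.913).

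**Figure D3:**
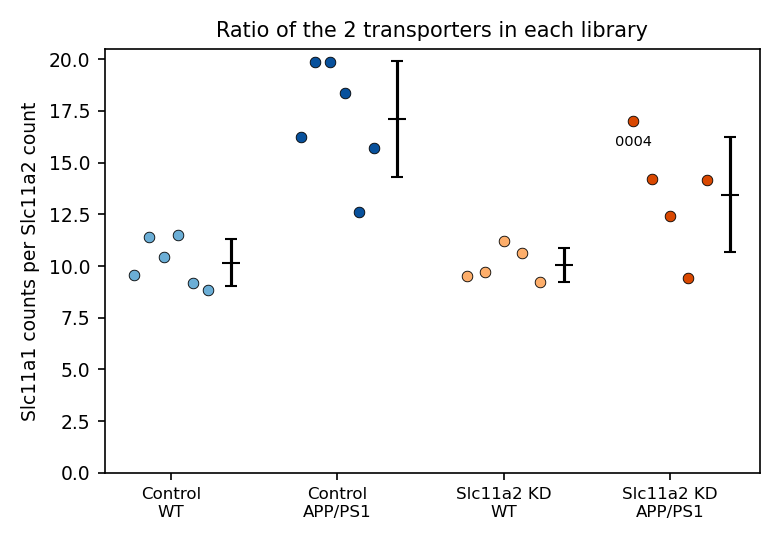
Slc11a1 counts per Slc11a2 count in each library (vertical axis, starting at 0), by group, with the mean and SD beside the points. Control APP/PS1 lies above Control WT in every library, from 12.6 against at most 11.5, while KD APP/PS1 spreads from 9.41 to 17.02.

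Within groups, the 2 genes were not clearly tied. Over 22 libraries, the deviations of log2 CPM from the group means had a Pearson r of 0.38 (permutation p = 0.0770) and a Spearman rho of 0.35 (permutation p = 0.117). Without Control WT 0015 and Control APP/PS1 0016, the 2 libraries farthest from the median of Slc11a1, r was 0.55 (permutation p = 0.0112). Within Control WT, r was 0.61 (n = 6, exact permutation p = 0.206), and within Control APP/PS1 it was -0.49 (n = 6, exact permutation p = 0.318). Whether these 2 values differ was not tested, and the KD groups, with 5 libraries each, were not examined alone.

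Of 9388 other genes with a mean of at least 5 CPM, those whose deviations were most like the deviations of Slc11a1 over the 22 libraries were Igf1, a growth factor (r = 0.77), Il4i1, an amino acid oxidase (r = 0.75), Mxra7 (r = 0.74), Nipa1, a magnesium transporter (r = 0.74) and Ncaph2, a condensin subunit (r = 0.73). The lowest values were those of Nherf2 (r = -0.77), Cep97 (r = -0.71) and Ggta1 (r = -0.70). For Slc11a2 the highest were Ccz1, a subunit of the endosomal Mon1-Ccz1 complex (r = 0.89), Scand1 (r = 0.88), Bri3 (r = 0.86), Triap1 (r = 0.86) and Cd14, a co-receptor for lipopolysaccharide (r = 0.85). The lowest were Septin7 (r = -0.86), Slc25a23 (r = -0.86) and Plcl1 (r = -0.85). These r describe libraries that share depth, cell mixture and RNA quality, and they carry no test. Igf1 itself rose from 10.4 CPM in Control WT to 235 CPM in Control APP/PS1, so its likeness to Slc11a1 within groups went with a like direction between them. Il4i1 was also called higher in both APP/PS1 comparisons (edgeR), while Mxra7, Nipa1 and Ncaph2 were called in neither. Ccz1 stood at 63.7, 57.9, 66.9 and 73.6 CPM in Control WT, Control APP/PS1, KD WT and KD APP/PS1, a far narrower spread than that of Slc11a2. In KD APP/PS1 against KD WT, Scand1, Bri3 and Cd14 were called higher, by 1.03, 1.07 and 1.14 in log2 (edgeR, beside 16.2% of all genes called). Ccz1 and Triap1 were not called there.

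No neighbouring gene was called in either APP/PS1 comparison. Catip, 5815 bases before Slc11a1, averaged 1.06 CPM, and Ctdsp1, 5102 bases after it, stood at 87.5 ± 9.18 CPM in Control WT and 84.4 ± 4.02 CPM in Control APP/PS1 (SD, n = 6 each). The log2 fold change was -0.05 (adjusted p = 0.816, edgeR). On either side of Slc11a2, Tmt1a and Letmd1 gave log2 fold changes of 0.26 (adjusted p = 0.254) and -0.10 (adjusted p = 0.569, edgeR) between KD APP/PS1 and KD WT. A non-coding RNA on the opposite strand, Gm5475, shares 927 bases with annotated Slc11a2 exons, and whether the counting used strand is not given in the sources used here. Gm5475 had at most 7 counts in a library.

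The RefSeq table of start sites (GRCm38.p6) has 1 window for Slc11a1 and none for Slc11a2. The Slc11a1 window, chr1:74374953-74375252 on the plus strand of that build, spans 250 bases before to 50 bases after the start and is shown because the gene moves with genotype in every library. Capitals mark matches to GAGGAA, a string that holds the shorter GGAA core of ETS factors such as PU.1 (Spi1), and to ACGTG or GCGTG, the core read by HIF-1. GGAA also stands elsewhere in the window, where it is neither marked nor counted.
Slc11a1 promoter: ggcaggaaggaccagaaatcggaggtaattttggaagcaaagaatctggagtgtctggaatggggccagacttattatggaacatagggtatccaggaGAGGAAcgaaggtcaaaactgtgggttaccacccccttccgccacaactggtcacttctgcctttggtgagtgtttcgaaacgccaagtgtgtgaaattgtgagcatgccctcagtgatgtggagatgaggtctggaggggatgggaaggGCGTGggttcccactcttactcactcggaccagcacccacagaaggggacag
On both strands there was 1 match to GAGGAA, which 28.3% of 32851 promoter windows hold, and 1 to ACGTG or GCGTG, which 43.8% hold. TGANTCA, the letters read by AP-1, had 0 matches and is held by 7.8% of windows. A match is a description of letters, not a site.

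Among 8 transcription factors reported at the Slc11a1 promoter, 2 were higher and none was lower in Control APP/PS1 against Control WT (edgeR, beside 10.5% of all genes called), with a median log2 fold change of 0.24 beside -0.02 over all genes. Hif1a, the oxygen-regulated subunit of HIF-1, rose from 122 ± 15.1 CPM to 502 ± 96.9 CPM (SD, n = 6 each), which is 2.04 on the log2 scale (adjusted p = 4.66e-10, edgeR). Irf8, a factor that myeloid cells need, rose from 552 ± 44.4 CPM to 708 ± 69.9 CPM (SD, n = 6 each), by 0.36 (adjusted p = 0.00650, edgeR). Without Control WT 0012 and 0015, Irf8 was not called (0.29, adjusted p = 0.0700, edgeR), which left Hif1a as the 1 factor called, beside 6.91% of all genes. Spi1, which codes for PU.1, was at 293 and 264 CPM, a log2 fold change of -0.15 that was not called. In KD APP/PS1 against KD WT, 2 were higher and 1, Sp1, was lower (beside 16.2% of all genes), with Hif1a at 1.78 and Irf8 at 0.36, and a median of 0.03 beside -0.07 over all genes. Sp1 was not called with numbers 18 to 23 as a covariate (adjusted p = 0.159, edgeR).

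The phagosome proton pump supplies the proton gradient that NRAMP1 works with. Of its 16 listed subunits, 7 were higher in Control APP/PS1 than in Control WT and 14 in KD APP/PS1 than in KD WT, none was lower, and the medians were 0.46 and 0.72 in log2. Over all genes, 10.5% and 16.2% were called in these comparisons. For Atp6v1b2, a subunit of the ATP-splitting head, the log2 fold changes were 0.54 and 0.80 (adjusted p = 2.96e-04 and 8.46e-06, edgeR). For Atp6v0c, the ring of the membrane part, they were 0.63 and 1.11 (adjusted p = 0.00635 and 5.85e-05, edgeR). With numbers 18 to 23 as a covariate, 11 subunits were higher in the KD comparison (9.45% of all genes called), and without Control WT 0012 and 0015, 5 were in Controls (6.91% of all genes called).

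Of 8 genes of iron storage and exit, 6 were tested, and in Controls 3 were higher and 1 was lower in APP/PS1, beside 10.5% of all genes called. In Control APP/PS1, Ftl1, the ferritin light chain, rose from 973 ± 187 CPM to 1956 ± 65.1 CPM (SD, n = 6 each), by 1.01 in log2 (adjusted p = 1.48e-07, edgeR). Fth1, the heavy chain, rose by 0.79 (adjusted p = 0.00203, edgeR), and Hmox1, which frees iron from haem, was the third to rise. Slc40a1, the iron exporter ferroportin, fell from 286 ± 23.3 CPM to 119 ± 16.9 CPM (SD, n = 6 each), which is -1.26 on the log2 scale (adjusted p = 7.89e-09, edgeR). In the KD comparison Ftl1 at 1.11, Fth1 at 0.73, Hmox1 at 0.45 and Slc40a1 at -0.99 were called, and Cp, a ferroxidase, was also lower, beside 16.2% of all genes. With numbers 18 to 23 as a covariate, Cp lost its call (adjusted p = 0.116, edgeR) and the other 4 kept theirs, beside 9.45% of all genes.

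Partners of DMT1 in iron entry were mixed, with 3 of 15 higher and 3 lower in each of both APP/PS1 comparisons, in which 10.5% (Control) and 16.2% (KD) of all genes were called. Mcoln1, which lets iron out of lysosomes, rose by 0.38 in Controls (adjusted p = 0.0338, edgeR) and by 0.66 in KD (adjusted p = 8.98e-04, edgeR). Pcbp2, an iron chaperone that binds DMT1, rose by 0.35 and 0.52, and Slc39a14, another importer of iron and manganese, by 0.73 and 0.50. Ncoa4, the receptor for ferritin breakdown, had log2 fold changes of -0.42 (adjusted p = 0.0471) and -0.70 (adjusted p = 0.00231, edgeR). Tfrc, the transferrin receptor, stood at -0.19 in Controls, not called, and fell by 0.54 in KD (adjusted p = 0.0131, edgeR). Tfrc was not called with numbers 18 to 23 as a covariate (-0.43, adjusted p = 0.0621, edgeR), and 2 of the 15 were higher and 1 lower, beside 9.45% of all genes. Steap3, an endosomal ferric reductase, was not called in either (0.15 and -0.16).

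Steap1, called lower in Controls, is carried by few libraries. It was at 9.26 and 5.97 CPM in Control WT 0012 and 0015, at 0 counts in the other 4 Control WT libraries, and at 0 counts in 5 of the 6 Control APP/PS1 libraries. These 2 are the libraries with the highest choroid plexus markers, and without them Steap1 was not called (adjusted p = 0.703, edgeR) and 1 of the 15 genes, Slc39a14, remained called, beside 6.91% of all genes.

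Of 16 genes that control DMT1 RNA or protein, Control APP/PS1 had 1 called higher and 2 called lower, and KD APP/PS1 had 2 higher and 5 lower, beside 10.5% and 16.2% of all genes called. Hif1a, which with Epas1 (HIF-2) can drive Slc11a2, rose in both as given above, while Epas1 had log2 fold changes of -1.28 (adjusted p = 0.00742) and -1.31 (adjusted p = 0.0100, edgeR). Ireb2, an iron regulatory protein that stabilises the Slc11a2 transcript with the iron responsive element, was at -0.14 in Controls and -0.60 in KD (adjusted p = 0.691 and 0.0269, edgeR). Aco1, the other iron regulatory protein, was called in neither (0.01 and -0.32). With numbers 18 to 23 as a covariate, Hif1a alone of this list was called in the KD comparison. The same held in Controls without Control WT 0012 and 0015, where Epas1 had an adjusted p of 0.0621 (edgeR).

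Of 6 manganese transport genes, Slc39a14 alone was called, higher in both APP/PS1 comparisons (beside 10.5% and 16.2% of all genes called). With numbers 18 to 23 as a covariate its KD difference was 0.50 and not called (adjusted p = 0.0717, edgeR). Atp13a1 and Slc39a8 had log2 fold changes of 0.52 and -0.36 in Controls and 0.22 and -0.46 in KD, not called.

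Over the 6 lists, 64 of 66 genes were tested. In Control APP/PS1, 15 were higher and 6 lower (32.8%, beside 10.5% of all genes, with 5.99% higher and 4.48% lower), and in KD APP/PS1 23 and 11 (53.1%, beside 16.2%, with 9.77% higher and 6.41% lower). Between KD and Control, 0 of the 64 were called in either genotype in edgeR. DESeq2 called 7 of them in APP/PS1, among 580 of all genes, and edgeR without KD APP/PS1 0004 called 21, 11 higher and 10 lower, at a background of 16.4% of all genes. Of these, 5 were proton pump subunits, all higher, with Atp6v0b at 0.86 (adjusted p = 0.0202, edgeR), and Ireb2 was at -0.66 (adjusted p = 0.0202, edgeR). The lists were chosen with results of these samples known and are no independent evidence of a direction.

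**Figure D4:**
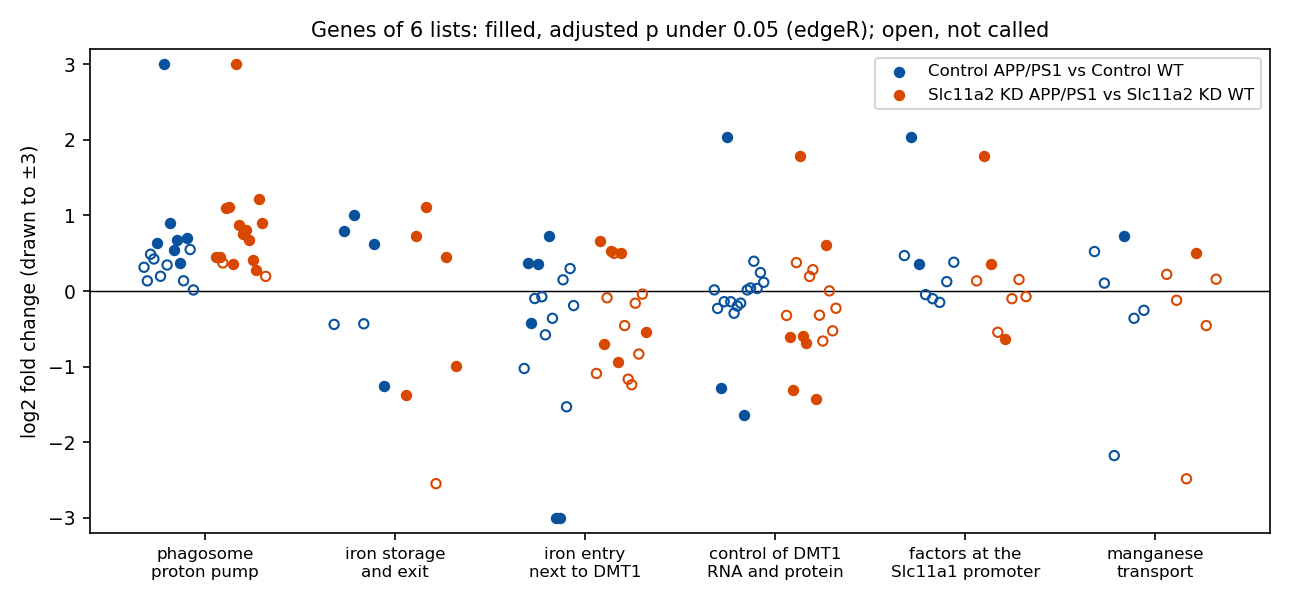
Log2 fold change (vertical axis, drawn to 3 in either direction) of every tested gene of the 6 lists (horizontal axis) in Control APP/PS1 against Control WT (blue) and KD APP/PS1 against KD WT (orange), filled where edgeR's adjusted p was under 0.05. The proton pump has only higher calls, 7 and 14, while the other iron lists hold calls in both directions; 4 values beyond the axis, of Steap1, Steap2 and Atp6v0d2, sit on its edge.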

How the data were processed

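RNA of magnetically isolated hippocampal CD11b+ cells was sequenced in bulk, 1 library per sample. The authors trimmed reads with Trim Galore 0.6.7, aligned them to mm39 with STAR and counted reads per gene with STAR, and deposited the counts without normalization. The second deposited table holds a signal, the counts divided by the DESeq2 1.36.0 size factors over all 23 samples, and was used only as an alternative for the ratio and the correlation. Whether counting used strand is not given in the sources used here.

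The 18759 genes that reached 5 counts in 3 or more of the 22 samples were tested in edgeR 4.0.16 under R 4.3.3 (TMM scaling, quasi-likelihood test, all 4 groups in 1 fit), with Benjamini-Hochberg adjustment over all genes tested and a threshold of 0.05. SE was the size of the log2 fold change over the square root of F. Ratios (0.5 added to each count) were compared by exact two-sided permutation, and correlations by 100000 permutations, with SciPy. RPKM used GENCODE M39 lengths on GRCm39. The study describes the samples of a group as separate mice, while the labels tie no library to an animal, and p-values measure the spread between these samples. Alternatives were DESeq2 1.42.0, limma voom 3.58.1, other scaling and filters, 0010 kept, libraries left out and library numbers as a covariate. Named genes were the members, the list genes with the smallest p in the comparison with most calls and 12 set iron and transcription factor genes, the 5 most and 3 least alike genes and the nearest genes. Members and lists were chosen with earlier results of these data known. The steps were tested on simulated data. Counting error is Poisson and covers counting only.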

Additional observations from a re-analysis of the deposited data

Results flagged for a closer look

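In Control APP/PS1 0010, the library left out of every comparison, Slc11a1 was at 673 CPM when all 23 libraries were scaled together. This is above the highest Control WT library on the same scale, 397 CPM, and inside the range of the other Control APP/PS1 libraries. Slc11a2 in 0010 was at 42.8 CPM, just below the highest Control WT library (43.3 CPM). No library stood apart from its group for Slc11a1, Slc11a2 or their ratio by the gap to its nearest neighbour in 12 groups of values, of which about 1 in 20 would be expected to by chance.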

How the results depend on the processing

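Slc11a1 kept its direction and its call between APP/PS1 and WT under all 10 alternatives in each comparison, from 1.01 to 1.07 in Controls and from 1.01 to 1.13 in KD. Its difference between KD APP/PS1 and Control APP/PS1, near 0 and never called, changed sign to 0.040 with DESeq2 and with its size factors in edgeR, 0.0064 with limma voom, 0.034 with at least 10 counts in every sample and 0.011 with 0010 kept, and its interaction to -0.042 with the library numbers as a covariate, where that difference was -0.18. For Slc11a2, KD APP/PS1 against Control APP/PS1 was called with DESeq2 (0.44), Control APP/PS1 against Control WT was called with only those groups in the fit (0.32), and KD APP/PS1 against KD WT was not called within libraries 18 to 23 (0.70) or with an added limit of 1 on the log2 fold change (0.72, chosen after seeing the data). The correlation passed an unadjusted 0.05 with the deposited normalized values (0.47). The cause was not tested, but fewer samples or a stricter rule make up the last 2 settings of Slc11a2.

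With 1 library left out at a time, the range was 1.01 to 1.10 and 1.05 to 1.15 for Slc11a1 in APP/PS1 against WT (Control, KD), -0.12 to -0.005 in KD WT against Control WT, -0.056 to 0.039 in KD APP/PS1 against Control APP/PS1 and -0.0066 to 0.10 for the interaction. For Slc11a2 these were 0.26 to 0.37, 0.59 to 0.84, -0.092 to 0.037, 0.25 to 0.50 and 0.30 to 0.54. Slc11a2 in KD WT against Control WT changed sign without KD WT 0003 and without Control WT 0014 (0.037 and 0.036), and the Slc11a1 interaction without Control APP/PS1 0016. For the log2 ratio they were 0.70 to 0.83, 0.31 to 0.52, -0.051 to 0.026 and -0.45 to -0.23 in the same order of comparisons, and for the correlation 0.25 to 0.53.

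The number of genes called moved more than that of the members. Control APP/PS1 against Control WT gave 1965 genes, 3421 with limma voom, 3241 with only those groups in the fit and 1282 without Control WT 0012 and 0015. KD APP/PS1 against KD WT gave 3034 genes, 1773 with the covariate, 1041 with only those groups, 327 within libraries 18 to 23, 4781 without KD APP/PS1 0004 and 1977 to 2022 without KD WT 0002, KD WT 0003 or KD APP/PS1 0021. Of the 64 list genes, 34 were called in the KD comparison, 20 with the covariate, 15 with only those groups and 5 within libraries 18 to 23, and in Controls 21 were called, 11 without 0012 and 0015. No paired analysis was possible because the labels give no litter or animal that would link libraries of different groups. Depth limits neither gene, since each had at least 973 counts in every library.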
